A study of Mus musculus with 6 samples.

Results

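The ligands of the EGF family and the ERBB receptors that bind them were followed in thyroid organoids derived from mouse embryonic stem cells and carrying an inducible Braf V637E oncogene. The genes were picked from the count table by name, and the group holds 10 genes of the 25239 listed, 7 ligands (Areg, Ereg, Hbegf, Tgfa, Btc, Epgn and Nrg1) and 3 receptors (Egfr, Erbb2 and Erbb3). Of these, 9 had enough counts to be tested and Epgn did not.

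All 6 RNA-seq libraries came from organoids at day 31, grown from G4 RosaLuc stem cells with a doxycycline-inducible TRE-Nkx2-1-Pax8 cassette and a bTg-NES-BrafV637E-ERT2 transgene, with 2 libraries in each of 3 groups. All received 1 µg/ml doxycycline for 5 days, which switches on Nkx2-1 and Pax8, and then 8-Br-cAMP for 2 weeks. The cAMP group received 8-Br-cAMP and the vehicle ethanol, the 4OHT group received 8-Br-cAMP and 1 µM 4-hydroxytamoxifen (4OHT) for 5 days, and the PD+LY group received 8-Br-cAMP and 1 µM 4OHT with 250 nM PD0325901 (a MEK inhibitor) and 5 µM LY204002 (a PI3K inhibitor) for 3 days. The Braf fusion is driven by a bovine thyroglobulin promoter and its protein is held inactive until 4OHT binds the ERT2 part, so the control organoids carry the transgene too. The line was derived from selected clones, at least 3 wells were pooled for each condition, follicles were enriched but other cells remained, and the inhibitors were given to cultures that had already received 4OHT, so the length of 4OHT exposure also differs between PD+LY and 4OHT and cannot be told apart from the inhibitors. The comparison of 4OHT with cAMP asks what 4OHT, which activates the oncogene, changed. No library received 4OHT without the transgene, so effects of 4OHT itself cannot be told apart from those of the oncogene. The comparison of PD+LY with 4OHT asks what inhibition of MEK and PI3K together changed in organoids with the active oncogene. The comparison of PD+LY with cAMP differs in 4OHT and in both inhibitors at once.

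EGF family ligands are made as membrane-bound precursors and are released by proteases of the ADAM family, ADAM17 foremost. A released ligand binds EGFR, ERBB3 or ERBB4, the receptors pair with each other or with ERBB2, and the pair signals through RAS and ERK and through PI3K. In thyroid follicular cells EGF is a known mitogen that opposes differentiated function.

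The libraries held 14898409 to 20637959 counts, so that 1 count was worth 0.0486 to 0.0667 CPM (counts scaled by library size), and 3 counts, taken as the floor of detection for counting error only, were worth 0.146 to 0.200 CPM. CPM values below were scaled with the TMM method. A gene is said to have risen or fallen when its p from the edgeR quasi-likelihood test, adjusted by Benjamini-Hochberg over 15256 tested genes, was under 0.05, and SE stands for the standard error of a log2 fold change. The sources used here do not say whether the libraries of a group came from separate differentiations, so p-values measure only the spread between these libraries. The PD+LY libraries differed most from each other, with a chi-square over genes of 17.9 per degree of freedom, compared to 8.32 in cAMP and 4.55 in 4OHT. In PD+LY, Tg, the thyroglobulin gene, was at 1869 and 907 CPM.

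Tg was abundant in every library, which fits the label of the tissue, at 1565 and 1021 CPM in cAMP and 514 and 693 CPM in 4OHT. The libraries also held markers of other cells. In cAMP, 12 mesenchymal markers summed to 3797 and 3393 CPM, of which Fn1 alone held 2446 and 1911 CPM. The study describes Fn1 as associated with aggressive thyroid cancer. The 10 pluripotency markers summed to 3819 and 3703 CPM in cAMP. Reads of Braf, from the native gene and any from the transgene that map there, which cannot be told apart in these counts, were at 95.3 and 85.4 CPM in cAMP, 61.7 and 61.4 CPM in 4OHT and 59.2 and 48.1 CPM in PD+LY. Braf fell in 4OHT versus cAMP by 0.55 on the log2 scale (SE 0.12, adjusted p = 0.0165). Its level does not check the labels, because 4OHT acts on the fusion protein, and Braf shares 146 exon bases with Ndufb2 on the other strand.

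Genes for 4 of the ligands lie side by side on chromosome 5 in GRCm38. Epgn, Ereg, Areg and Btc span 376 kb there, from 91027464 to 91402994, with Btc on the minus strand and the others on the plus strand. Areg covers 91139599 to 91148432 and Ereg 91074622 to 91093646. Egfr lies on chromosome 11 from 16752203 to 16918158. Of the members that fell in PD+LY versus 4OHT, the RefSeq table of GRCm38.p6 gave a promoter for Areg, Btc and Egfr. The 250 bases before their start sites are shown for that reason, and shared control of these 3 genes was not tested. Capitals mark the cyclic AMP response element TGACGTCA.

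Areg, chr5:91139349-91139598, plus strand: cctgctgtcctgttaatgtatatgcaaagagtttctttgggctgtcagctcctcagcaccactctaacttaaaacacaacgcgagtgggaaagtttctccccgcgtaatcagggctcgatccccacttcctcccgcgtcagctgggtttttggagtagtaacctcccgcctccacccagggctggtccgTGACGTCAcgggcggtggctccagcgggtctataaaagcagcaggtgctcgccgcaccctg
Btc, chr5:91402995-91403244, minus strand: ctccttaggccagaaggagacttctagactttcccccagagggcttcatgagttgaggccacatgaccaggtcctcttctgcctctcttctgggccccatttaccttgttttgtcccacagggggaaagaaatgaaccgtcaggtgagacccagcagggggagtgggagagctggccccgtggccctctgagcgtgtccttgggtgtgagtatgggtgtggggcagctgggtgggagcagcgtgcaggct
Egfr, chr11:16751953-16752202, plus strand: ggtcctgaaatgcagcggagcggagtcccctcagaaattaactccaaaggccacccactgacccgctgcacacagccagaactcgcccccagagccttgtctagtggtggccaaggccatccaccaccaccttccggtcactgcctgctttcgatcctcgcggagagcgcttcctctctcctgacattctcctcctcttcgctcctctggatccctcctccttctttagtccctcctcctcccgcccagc

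The element TGACGTCA, which reads the same on both strands, began 61 bases before the Areg start. It was absent from the same window of the other 5 matched members, which were Btc, Egfr, Epgn, Erbb2 and Tgfa, and was held by 1.55% of 32851 promoters of that length. Other motifs were searched on both strands and none was found in the 6 windows. These were the AP-1 motif TGANTCA, in 6.75% of all promoters, the ETS motif CCGGAAGT, in 2.88%, and the FOXO motif TGTTTAC, in 3.17%. None of these motifs contains another. Promoters of Ereg, Hbegf, Nrg1 and Erbb3 were not analysed here.

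Treatment with 4OHT, which activates Braf V637E, was accompanied by higher levels of 4 members, the ligands Areg, Ereg and Hbegf and the receptor Egfr. None of the 9 tested members fell. Across all tested genes, 4.04% rose and 4.35% fell. With the further threshold of a 2-fold change, which the study also used, 2 members rose (Areg and Ereg) and none fell, beside 1.17% and 1.51% of all genes. The median log2 fold change of the tested members was 0.57, against -0.00215 over all genes. The count of 4 members became 2 without cAMP replicate 1, 1 without 4OHT replicate 1 and 2 without 4OHT replicate 2, and the count of 1280 genes called in either direction moved to between 216 and 2314 when 1 of the 6 libraries was left out.

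With the inhibitors present, 6 members fell against 4OHT, namely Areg, Ereg, Hbegf, Btc, Nrg1 and Egfr, all by more than 2-fold. None rose. Btc passed the count filter through its 4OHT libraries, so its fall, which enters this count and the members' median, only describes these libraries. Among all genes 12.1% fell and 10.7% rose, or 4.90% and 2.35% with the 2-fold threshold. The members that fell numbered 4 where at least 10 counts were required in every library, which removes Ereg and Btc, and 6 with no filter. The members' median was -1.43, against 0.00768 over all genes. Against cAMP, 4 members fell in PD+LY, namely Areg, Ereg, Hbegf and Nrg1, 3 of them by more than 2-fold (Areg, Ereg and Nrg1), and none rose. Here 13.7% of all genes fell and 12.1% rose, or 6.24% and 3.00% with the 2-fold threshold, and the members' median was -0.55, against 0.00492. This count of 4 became 2 without cAMP replicate 1 or PD+LY replicate 2. The 3 comparisons share their libraries, so that the rise against cAMP and the fall against 4OHT rest on the same 4OHT values.

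**Figure D1:**
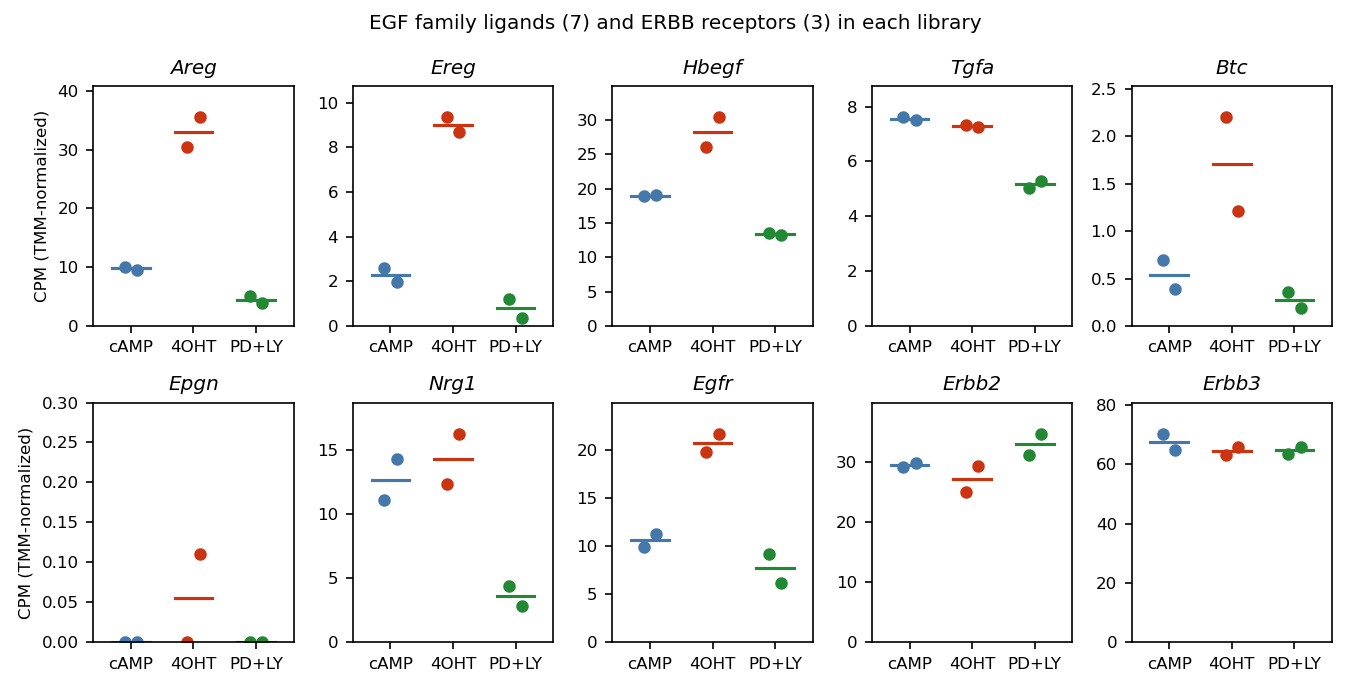
Level of each of the 10 members in CPM (vertical axes, linear and starting at 0, with a range of their own in each panel) by treatment group, with a point for each library and a line at the group mean. The 4OHT libraries lie above all others for Areg, Ereg, Hbegf, Btc and Egfr. Those of PD+LY lie below all others for Areg, Ereg, Hbegf, Tgfa, Btc, Nrg1 and Egfr. Erbb3 stays between 63 and 70.2 CPM throughout, and Epgn is under the floor of 3 counts in every library. Groups of 2 libraries can lie apart without a called difference, as those of Tgfa do in 4OHT versus cAMP. The share of all genes that separate was not counted.

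Areg, which encodes amphiregulin, a ligand of EGFR, had the smallest adjusted p among the members in 4OHT versus cAMP and in PD+LY versus 4OHT. It was at 10.1 and 9.5 CPM in cAMP, 30.4 and 35.5 CPM in 4OHT, and 5.04 and 3.84 CPM in PD+LY. The libraries were thus high in 4OHT, intermediate in cAMP and low in PD+LY, with no overlap between groups. How many of all genes separate in this way, here and below, was not counted. Areg rose 3.37-fold in 4OHT versus cAMP (log2 fold change 1.75, SE 0.17, adjusted p = 0.000119). It fell 7.43-fold in PD+LY versus 4OHT (-2.89, SE 0.18, adjusted p = 2.55e-06), to below its cAMP level (-1.14, SE 0.19, adjusted p = 0.00106). All 3 calls held in every alternative tried.

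Ereg, the neighbour of Areg, encodes epiregulin, a ligand of EGFR and ERBB4. It was at 2.58 and 1.95 CPM in cAMP, 9.34 and 8.66 CPM in 4OHT, and 1.22 and 0.34 CPM in PD+LY, the last from 24 and 7 counts. The groups kept the order of Areg and did not overlap, but the PD+LY libraries stood far apart. Ereg rose 4-fold in 4OHT (2.00, SE 0.36, adjusted p = 0.00655) and fell 11.5-fold in PD+LY versus 4OHT (-3.53, SE 0.41, adjusted p = 0.000157). The size of that fall rested on the PD+LY libraries, with a log2 fold change of -4.70 without PD+LY replicate 1 and -2.87 without PD+LY replicate 2, both called. Its fall against cAMP was smaller (-1.53, SE 0.45, adjusted p = 0.0259). The fall against cAMP was -2.69 without PD+LY replicate 1 and -0.87, with an adjusted p of 0.113, without PD+LY replicate 2, and its adjusted p was 0.0922 without cAMP replicate 1 and 0.076 with only the 2 groups compared in the fit. The rise in 4OHT had an adjusted p of 0.0712 without 4OHT replicate 1. Exons of Ereg share 141 bases with Gm19610 on the other strand, and the reads were counted without regard to strand, so that reads from this stretch cannot be assigned to either gene.

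Btc encodes betacellulin, which also binds EGFR and ERBB4, and was the scarcest member tested. It had 11 and 8 counts in cAMP, 33 and 22 in 4OHT, and 7 and 4 in PD+LY. Every 4OHT library exceeded every other library, and each PD+LY count was near the floor. Btc passed the count filter through its 4OHT libraries, the group where it was highest, so its comparisons with 4OHT only describe these libraries. It was not tested where at least 10 counts were required in every library. The difference between 4OHT and cAMP of 1.66 (SE 0.57) had an adjusted p of 0.0993, and Btc was not called there. Btc fell in PD+LY versus 4OHT (-2.59, SE 0.62, adjusted p = 0.0112), a call that was lost without 4OHT replicate 1 (adjusted p = 0.121) or without PD+LY replicate 2 (0.0584). Epgn, for epigen, had 2 counts in 4OHT replicate 2 and 0 in the other 5 libraries, which is under the floor.

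Hbegf, for heparin-binding EGF-like growth factor, a ligand of EGFR and ERBB4, was at 18.9 and 19.1 CPM in cAMP, 26.1 and 30.4 CPM in 4OHT, and 13.6 and 13.3 CPM in PD+LY. The order of the groups was that of Areg, without overlap, but with smaller differences. Its rise in 4OHT was 1.49-fold (0.57, SE 0.14, adjusted p = 0.027), and the call was lost when any 1 of the 4 cAMP and 4OHT libraries was left out, with log2 fold changes of 0.46 to 0.68 and adjusted p-values of up to 0.28. Hbegf fell in PD+LY versus 4OHT (-1.07, SE 0.14, adjusted p = 0.00038). Against cAMP it fell by 0.50 (SE 0.14, adjusted p = 0.0246), and that adjusted p was 0.0882 without cAMP replicate 1, 0.12 without cAMP replicate 2, 0.0529 without PD+LY replicate 2 and 0.0537 with only the 2 groups compared in the fit.

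Tgfa, for transforming growth factor alpha, an EGFR ligand, had steady levels of 7.61 and 7.5 CPM in cAMP and 7.34 and 7.24 CPM in 4OHT, and of 5.04 and 5.3 CPM in PD+LY. The PD+LY libraries were the lowest, without overlap. No difference was called, with -0.49 (SE 0.20, adjusted p = 0.0962) in PD+LY versus 4OHT and -0.55 (SE 0.20, adjusted p = 0.0636) against cAMP. The difference of -0.05 (SE 0.20) between 4OHT and cAMP was within the spread of its error. Tgfa shares 118 exon bases with Gm43917 on the other strand.

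Nrg1 encodes neuregulin 1, which binds ERBB3 and ERBB4 and not EGFR. It was at 11.1 and 14.3 CPM in cAMP, 12.4 and 16.3 CPM in 4OHT, and 4.43 and 2.87 CPM in PD+LY. The cAMP and 4OHT libraries overlapped, and both PD+LY libraries lay below them. Between 4OHT and cAMP the difference was 0.18 (SE 0.22, adjusted p = 0.684). Nrg1 fell in PD+LY, by 1.98 against 4OHT (SE 0.25, adjusted p = 0.000251) and by 1.81 against cAMP (SE 0.25, adjusted p = 0.000283) on the log2 scale, and both calls held in every alternative tried. Exons of Nrg1 share 482 bases with Gm26578 on the other strand.

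**Figure D2:**
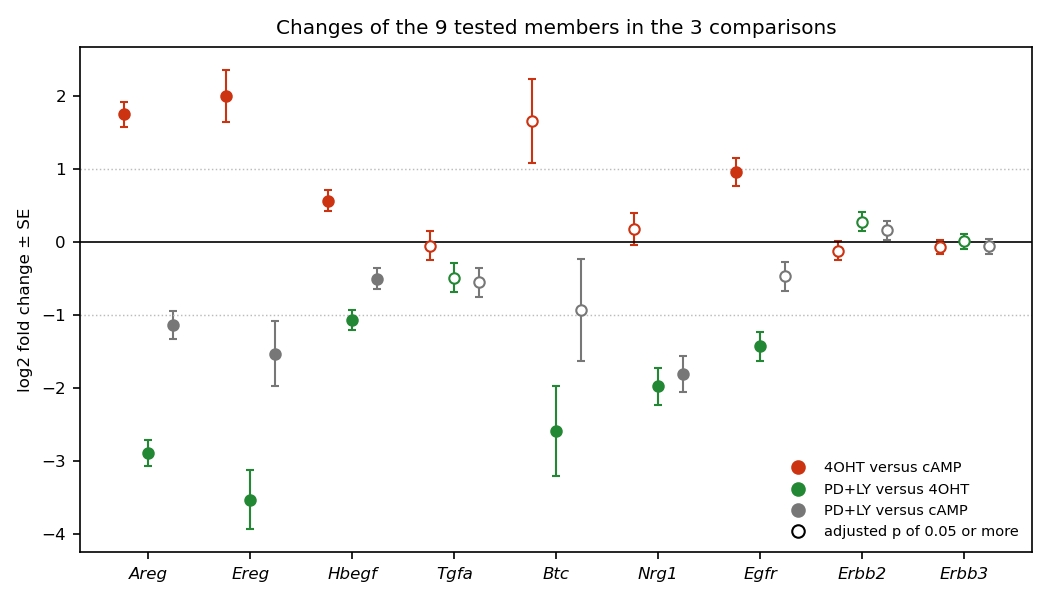
Log2 fold change with its SE (vertical axis) of the 9 tested members (horizontal axis) in 4OHT versus cAMP, PD+LY versus 4OHT and PD+LY versus cAMP, from 1 edgeR fit to 6 libraries. Filled points had an adjusted p under 0.05, and dotted lines mark a 2-fold change; Areg, Ereg and Hbegf rose in 4OHT and fell in both PD+LY comparisons, while Erbb2 and Erbb3 lie within 0.28 of 0.

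Egfr was the 1 receptor among the members that changed. The gene encodes the receptor of EGF, amphiregulin and transforming growth factor alpha, and was at 9.93 and 11.3 CPM in cAMP, 19.8 and 21.7 CPM in 4OHT, and 9.16 and 6.22 CPM in PD+LY. The 4OHT libraries were the highest, and the PD+LY libraries lay below those of cAMP, replicate 2 further than replicate 1. Egfr rose 1.95-fold in 4OHT (0.96, SE 0.19, adjusted p = 0.0115), just under the 2-fold threshold. The adjusted p of this rise was 0.0714 without cAMP replicate 1, 0.0764 without 4OHT replicate 1 and 0.112 without 4OHT replicate 2. Egfr fell in PD+LY versus 4OHT (-1.43, SE 0.20, adjusted p = 0.000481). Against cAMP the difference was -0.47 (SE 0.20, adjusted p = 0.111), and without PD+LY replicate 1 it was -0.77 with an adjusted p of 0.0133.

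Erbb2 encodes the partner receptor that binds no ligand of its own. It was at 29.2 and 29.9 CPM in cAMP, 25.1 and 29.3 CPM in 4OHT, and 31.2 and 34.7 CPM in PD+LY. The PD+LY libraries were the highest, and no difference passed the test. Its log2 differences were -0.12 (SE 0.13, adjusted p = 0.636), 0.28 (SE 0.13, adjusted p = 0.153) and 0.16 (SE 0.13, adjusted p = 0.416) in the 3 comparisons. Erbb3, the receptor with an impaired kinase that couples to PI3K, was at 70.2 and 64.7 CPM in cAMP, 63 and 65.7 CPM in 4OHT, and 63.5 and 65.9 CPM in PD+LY. All 3 groups of Erbb3 overlapped, and its differences were -0.07, 0.01 and -0.06, each with an SE of 0.10.

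To compare levels between genes, CPM was divided by the length of all exons of a gene in kb. In cAMP, Areg was the highest ligand, at 8.05 CPM per kb, followed by Hbegf at 3.93 and Nrg2 at 3.26. Nrg1 at 1.23 and Tgfa at 1.16 overlapped, as did Nrg4 at 0.662 with Ereg at 0.548, and Btc at 0.12 with Egf at 0.113. In 4OHT the order was Areg at 27.1, Hbegf at 5.84, Nrg2 at 3.29 and Ereg at 2.18 CPM per kb, with no overlap between these neighbours. In PD+LY, Nrg2 at 3.73 and Areg at 3.65 overlapped, and Hbegf followed at 2.78. Several places depended on the length used. With the longest transcript as the length, none of the 3 pairs in cAMP overlapped, with Nrg1 above Tgfa, Nrg4 above Ereg and Egf above Btc in both libraries. In 4OHT, Nrg1 then lay above Ereg, with 4.91 and 5.79% of the summed ligand level against 4.85 and 4.03%.

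Among the receptors, Erbb3 was the highest in cAMP at 11.2 CPM per kb, then Erbb2 at 5.67, Egfr at 0.937 and Erbb4 at 0.146, with no overlap between neighbours. The same order held in 4OHT, with Egfr at 1.83, and in PD+LY, with Egfr at 0.679 CPM per kb. Egfr thus made up 4.77 and 5.69% of the summed receptor level in cAMP, 10.2 and 10.3% in 4OHT, and 4.61 and 3.01% in PD+LY.

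The summed level of 11 ligands, the 7 members with Egf, Nrg2, Nrg3 and Nrg4, was 18.8 and 19.4 CPM per kb in cAMP, 39.6 and 44.6 in 4OHT, and 12.7 and 11.7 in PD+LY. The groups did not overlap, with 4OHT highest. Areg made up 82.7% of the difference in this sum between the means of 4OHT and cAMP, or 77.7% with the longest transcript as the length. Without Areg the sum was 10.5 and 11.6 CPM per kb in cAMP, 14.6 and 15.4 in 4OHT, and 8.54 and 8.55 in PD+LY.

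Areg held 44.1 and 40.3% of the summed ligand level in cAMP, 63.1 and 65.5% in 4OHT, and 32.7 and 27% in PD+LY. The share of Nrg2, whose own level was not called in any comparison, was 14.9 and 19.2%, 8.2 and 7.48%, and 27.5 and 34% in these groups. Hbegf held 22.2 and 23.5% in PD+LY, less than Areg in each library. With the longest transcript as the length this order turned, and Hbegf was the highest ligand in both PD+LY libraries, at 28.4 and 30%, with Areg at 25 and 20.6% and Nrg2 at 21.6 and 26.6%. The summed receptor level was 18.4 and 17.5 CPM per kb in cAMP, 17.1 and 18.6 in 4OHT, and 17.6 and 18.2 in PD+LY, so that the groups overlapped.

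**Figure D3:**
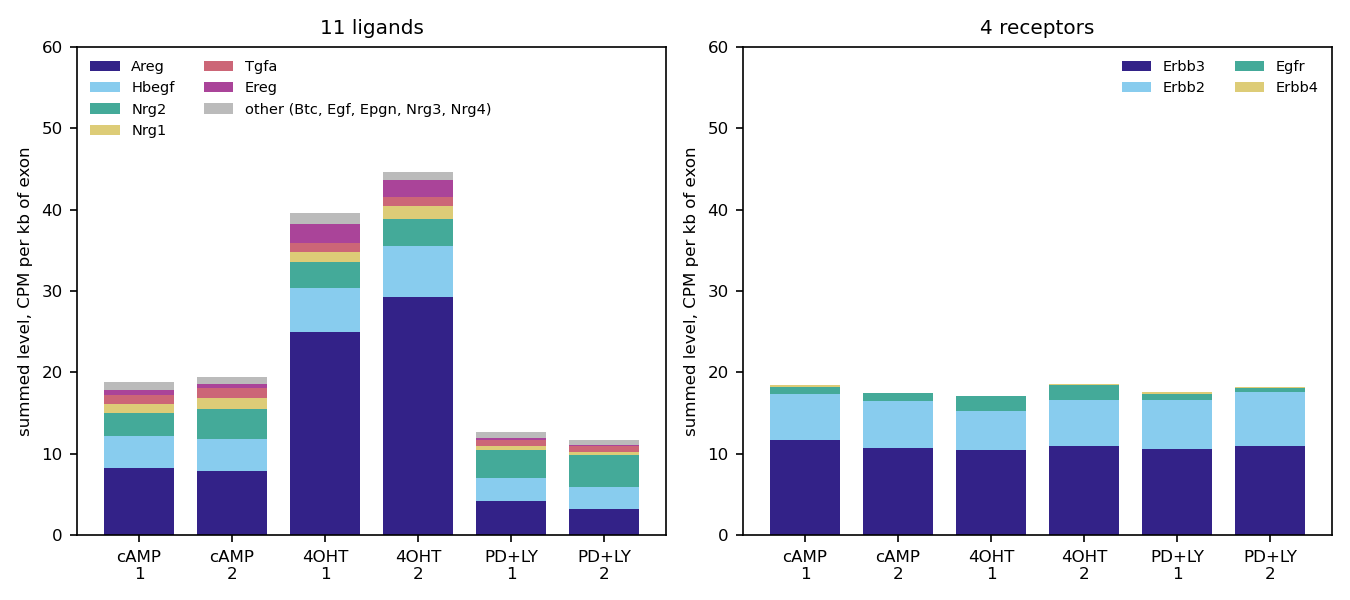
Summed level of the 11 ligands (left) and the 4 receptors (right) in CPM per kb of exon (vertical axes, from 0) in each of 6 libraries, divided by gene. The ligand sum is 39.6 and 44.6 in 4OHT against 18.8 and 19.4 in cAMP and 12.7 and 11.7 in PD+LY, with Areg as the largest section in 4OHT, while the receptor sums lie between 17.1 and 18.6.

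The 5 other genes of the family were not called in any comparison. Erbb4, the fourth receptor, had 48 and 12 counts in cAMP, 10 and 24 in 4OHT, and 52 and 23 in PD+LY, a spread within groups as large as that between them. Egf, the ligand that names the family, had between 19 and 37 counts in every library, and Nrg3 had 0 counts in all 6. Nrg2 differed by 0.01 (SE 0.19), 0.18 (SE 0.19) and 0.19 (SE 0.19) on the log2 scale, and Nrg4 by 0.03 (SE 0.27), -0.48 (SE 0.28) and -0.46 (SE 0.28), in the comparisons as ordered above. Egf shares 500 and 607 exon bases, and Nrg4 368 and 177, with genes on the other strand.

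Of 12 genes for ligand release, the proteases that free the ligands and their regulators, 1 rose and none fell in 4OHT versus cAMP. This was Adam8, a metalloprotease, with 4.34 and 3.9 CPM in cAMP and 8.8 and 7.07 CPM in 4OHT (0.95, SE 0.24, adjusted p = 0.0318). In PD+LY versus 4OHT 3 rose and 3 fell. Adam12 rose by 1.47 (SE 0.23, adjusted p = 0.000961), Adam17, the main sheddase of amphiregulin, by 0.54 (SE 0.10, adjusted p = 0.00309), and Adam19 by 0.27 (SE 0.09, adjusted p = 0.0457). Those that fell were Adam8 at -1.30 and Rhbdf1 and Rhbdf2, the iRhom cofactors of ADAM17, at -0.75 (adjusted p = 0.00605) and -0.53 (adjusted p = 0.01). Against cAMP, Adam12 (1.01) and Adam15 (0.40) rose and Rhbdf1 (-0.72) fell in PD+LY. The medians of the list were 0.09, -0.08 and 0.19. The calls of Adam12 and Adam8 in PD+LY versus 4OHT held in every alternative tried. Those of Adam17, Rhbdf1 and Rhbdf2 were lost without 4OHT replicate 2 (adjusted p = 0.053, 0.0833 and 0.163), and those of Adam12 and Rhbdf1 against cAMP without cAMP replicate 2 (0.0516 and 0.0931). The call of Adam8 in 4OHT was lost when any 1 of the cAMP and 4OHT libraries was left out (adjusted p up to 0.266), and those of Adam19 and Adam15 were lost in 6 alternatives each, to which several single libraries belong. Exon bases shared with genes on the other strand number 1263 for Adam15, 587 and 480 for Adam19, 311 for Adam17 and 46 for Adam8.

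Of 13 genes for inhibitors and turnover of the receptors, Lrig3 was the 1 that fell in 4OHT versus cAMP (-0.50, SE 0.14, adjusted p = 0.047), and none rose. In PD+LY versus 4OHT Lrig1 (0.38) and Lrig3 (0.42) rose, both of a family of membrane proteins of which LRIG1 is known to restrain EGFR. Errfi1, which encodes the EGFR kinase inhibitor MIG6, fell by 0.58 (SE 0.13, adjusted p = 0.00742), and the phosphatase gene Ptprj by 0.43 (SE 0.13, adjusted p = 0.0345). Against cAMP 3 fell and none rose, namely Ptprj (-0.70), the ubiquitin ligase gene Cbl (-0.70) and Errfi1 (-0.40). The medians were -0.09, -0.01 and -0.04. The call of Ptprj against cAMP held in every alternative tried. That of Errfi1 against 4OHT was lost without 4OHT replicate 2 (adjusted p = 0.115) and that of Cbl without cAMP replicate 1 (0.0717). The call of Lrig3 in 4OHT was lost when any 1 of the cAMP and 4OHT libraries was left out (up to 0.368), and the other named calls of this list were lost in 3 to 7 alternatives each, without 4OHT replicate 1 and without 4OHT replicate 2 among them. Lrig1 shares 144 exon bases with a gene on the other strand.

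Of 17 genes for adaptors and effectors that bind active receptors, Grb7 fell in 4OHT versus cAMP and none rose. Grb7, an adaptor of ERBB2, was at 51.3 and 56.3 CPM in cAMP, 30.5 and 28.1 CPM in 4OHT, and 18.6 and 23.5 CPM in PD+LY, without overlap. Its log2 fold changes were -0.88 (SE 0.14, adjusted p = 0.00312), -0.48 (SE 0.14, adjusted p = 0.0317) and -1.35 (SE 0.14, adjusted p = 4.37e-05). In PD+LY versus 4OHT 5 rose and 2 fell. Grb2, the adaptor that brings SOS to the receptors, rose by 0.57, the PI3K subunit genes Pik3r1 and Pik3cb by 0.54 and 0.33, and the RAS activator Sos2 by 0.46, while Eps8 and Grb7 fell. Against cAMP 2 rose, Grb2 (0.76) and Sos2 (0.78), and 4 fell, Grb7, Eps8 (-0.39), Shc1 (-0.34) and Plcg1 (-0.32). The medians were -0.08, 0.08 and -0.09. The calls of Grb2 in both PD+LY comparisons and of Grb7 and Sos2 against cAMP held in every alternative tried. That of Grb7 in 4OHT was lost without 4OHT replicate 2 (adjusted p = 0.0597). The call of Shc1 was lost without either cAMP library, and the other named calls of this list were lost in 2 to 5 alternatives each, without 4OHT replicate 1 and without 4OHT replicate 2 among them. Plcg1 shares 248 and 379 exon bases with genes on the other strand.

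Of 18 genes known to be induced by ERK, 2 rose and 4 fell in 4OHT versus cAMP. Etv4, an ETS transcription factor gene, was at 21 ± 1.45 CPM (SD, n = 2) in the cAMP group, 36.7 ± 0.169 CPM in the 4OHT group and 0.5 ± 0.157 CPM in PD+LY. Etv4 was thus high in 4OHT and near the floor in PD+LY, and rose by 0.80 in 4OHT (SE 0.14, adjusted p = 0.0064). Ier3 rose by 0.52, while Dusp6 (-0.72), an ERK phosphatase gene, Spry1 (-0.64), Etv5 (-0.54) and Spred2 (-0.39) fell. In PD+LY 16 of the 18 fell and none rose, both against 4OHT and against cAMP, with medians of -1.71 and -1.62. Against 4OHT these included Spry4 (-6.33, SE 0.27), Etv4 (-6.18, SE 0.22), Dusp4 (-3.92, SE 0.17) and Dusp6 (-2.45, SE 0.14). Against cAMP the changes of these genes were -6.24, -5.38, -4.27 and -3.17. These PD+LY calls held in every alternative tried. Each of the 6 calls in 4OHT was lost without 4OHT replicate 1 and without 4OHT replicate 2, with adjusted p-values of up to 0.333 over the libraries left out. Spry1 shares 710 exon bases with a gene on the other strand.

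**Figure D4:**
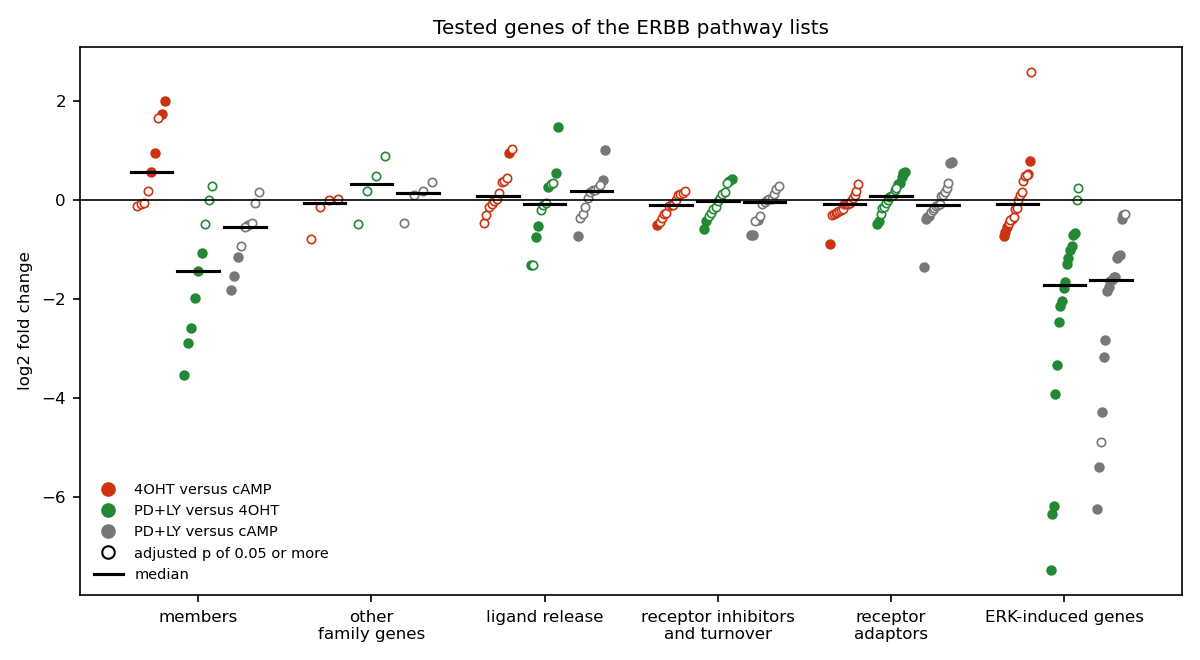
Log2 fold change (vertical axis) of each tested gene of the members and of 5 further lists (horizontal axis) in 3 comparisons, with filled points for an adjusted p under 0.05 and a bar at the list's median. The ERK-induced genes have medians of -1.71 and -1.62 in the PD+LY comparisons, the members -1.43 and -0.55, and the medians of the other 4 lists lie between -0.09 and 0.34; the lowest point is Fosl1, which had 0 counts in both PD+LY libraries, so that its fitted value is no measure of size.

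Markers of cell types moved between the groups too, and in bulk samples fewer cells of a type and less RNA per cell cannot be told apart. The summed level of 12 epithelial markers, most abundant among them Cdh1, was 1268 and 1376 CPM in cAMP, 960 and 1086 in 4OHT, and 856 and 898 in PD+LY. Of these markers 1 rose and 5 fell in 4OHT versus cAMP, 1 rose and 9 fell in PD+LY versus 4OHT, and 11 fell in PD+LY versus cAMP. The 5 that fell in 4OHT were, with log2 fold changes, Esrp1 (-1.38), Cldn6 (-1.14), Grhl2 (-0.88), Epcam (-0.64) and Cdh1 (-0.46). The marker that rose in 4OHT was Krt7, a keratin gene, named here after its values were seen. Krt7 was at 27 and 31.7 CPM in cAMP, 54.9 and 66.5 CPM in 4OHT and 21.6 and 19.2 CPM in PD+LY. Like Areg, it was highest in 4OHT and lowest in PD+LY, with log2 fold changes of 1.05 (adjusted p = 0.00118), -1.57 and -0.53, all called.

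The 12 mesenchymal markers, most abundant among them Fn1, summed to 4843 and 5042 CPM in 4OHT and 7296 and 6186 CPM in PD+LY, and 4 rose and none fell in 4OHT versus cAMP. In PD+LY, 3 rose and 4 fell against 4OHT, and 4 rose and 3 fell against cAMP. The 12 thyroid markers, Tg most abundant, summed to 1660 and 1111 CPM in cAMP, 575 and 768 in 4OHT, and 2000 and 999 in PD+LY. Of these, 3 fell and none rose in 4OHT, 6 rose and none fell in PD+LY versus 4OHT, and 3 rose and none fell against cAMP.

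Endothelial markers, 10 genes of which 9 were tested, lay between 217 and 257 CPM in sum in all libraries, a sum carried by Pecam1 with a mean of 151 CPM. In 4OHT versus cAMP 1 of them rose, Pecam1 (0.36, adjusted p = 0.0271), and 4 fell, namely Kdr (-2.31), Tie1 (-3.46), Cdh5 (-1.47) and Cldn5 (-1.98). None rose in PD+LY, where 2 fell against 4OHT and 6 against cAMP.

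The 10 pluripotency markers, led by Dppa5a, lay between 3703 and 4745 CPM in sum. Of these 2 rose and none fell in 4OHT versus cAMP, 4 rose and 2 fell in PD+LY versus 4OHT, and 6 rose and 2 fell against cAMP. The 10 neural progenitor markers, led by Otx2, were at 283 and 265, 171 and 168, and 223 and 230 CPM. Of the 9 tested, 4 fell and none rose in 4OHT versus cAMP, 3 rose and 1 fell in PD+LY versus 4OHT, and 2 rose and 5 fell against cAMP. The 10 macrophage markers, led by Cd68, were at 67.5 and 69.8, 58.5 and 66.7, and 32.6 and 34.2 CPM, and Ptprc, Adgre1, C1qa and C1qb among them had 0 counts in every library. Of the 4 macrophage markers tested, none was called in 4OHT versus cAMP, and 2 fell and none rose in each PD+LY comparison. The part of these cell types in the changes of the ligands and of Egfr was not tested.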

How the data were processed

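Bulk RNA-seq of 6 libraries was used. The deposited values are raw counts per gene symbol; per the labels and the methods of the study, the authors trimmed reads with Trimmomatic, aligned them to mm10 with HISAT2 and counted them with HTSeq without regard to strand, although the kit marks strand. Genes were filtered with filterByExpr (minimum count 10, minimum total 15), which left 15256 of 25239, and 1 quasi-likelihood model with 3 groups was fitted to all libraries in R 4.3.3 with edgeR 4.0.16 and TMM factors of 0.99 to 1.01. P-values were Benjamini-Hochberg adjusted across every gene that passed the filter, and a 2-fold change served as a further threshold, as in the study. The SE of a log2 fold change was derived from its F statistic. The procedure was tested on simulated data. Symbols were matched to GENCODE M21 (24366 of 25239) for positions and exon lengths, and to RefSeq promoters. Alternatives were DESeq2 1.42.0, its size factors, other filters, only the groups compared, a replicate block, and leaving out each library.

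The members and lists were chosen with earlier results of these data known. All members, the other family genes and Braf are named; of the further lists, up to 4 called genes per direction and comparison with the smallest adjusted p are named. Epithelial, mesenchymal, thyroid, endothelial, pluripotency, neural progenitor and macrophage markers were counted and summed. For Areg, Ereg, Egfr and Erbb3, the 3 genes with the highest Pearson r over the libraries are given, among genes averaging 50 counts or more, on log2 CPM with a prior count of 2. For Ereg, 1 of the 3 is not reported here.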

Additional observations from a re-analysis of the deposited data

How the results depend on the processing

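With 2 libraries per group, the counts of calls depended on single libraries. Leaving out 1 library gave 1 to 4 members called in 4OHT against cAMP (4 with all libraries) and 1 to 3 with the 2-fold threshold (2), and 216 to 2314 genes (1280) and 164 to 487 with 2-fold (408). It gave 1198 to 4158 genes in PD+LY against 4OHT (3469) and 632 to 1176 with 2-fold (1107), and in PD+LY against cAMP 2 to 5 members (4), 1 to 3 with 2-fold (3) and 2351 to 4287 genes (3925). Where a library was left out, the lone library of its group was assumed to vary like the others. In 4OHT against cAMP, 2186 genes were called with no filter and 2307 with only the 2 groups compared, and 1 member was called with 2-fold where at least 10 counts were required in every library. In PD+LY against cAMP, 2 members were called with only the 2 groups compared. With a replicate block 2373 genes were called in 4OHT against cAMP. The numbers of the replicates are not known to pair the libraries: the correlations of their deviations were 0.0718, 0.207 and 0.0586. With the block Tgfa was called in PD+LY against cAMP (adjusted p = 0.0471), and no other member's call changed.

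Signs turned only for genes not called in the comparison named. In 4OHT against cAMP, leaving out 1 library gave Nrg1 -0.03 to 0.38, Egf -0.44 to 0.24, Nrg2 -0.18 to 0.24, Nrg4 -0.22 to 0.25 and Erbb4 -1.57 to 0.78. In PD+LY against 4OHT it gave Erbb3 -0.02 to 0.04, which was -0.0029 with at least 10 counts in every library, and in PD+LY against cAMP it gave Erbb4 -0.67 to 1.67. Over members and alternatives, 294 values kept direction and side of the threshold, 17 lost the call, 2 gained it and 4 turned sign. The cause was not tested. Low counts limit Btc, Epgn, Egf and Erbb4.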

Other observations

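Of 12223 other genes averaging 50 counts or more, Fkbp11 (Pearson r = 0.998), Lgals3 (0.997) and Pcdhgc3 (0.996) had the log2 CPM pattern over the 6 libraries most like that of Areg, and 176 genes had an r above 0.95. For Ereg, Sec61a2 (0.997) and Mpp6 (0.996) are given, with 99 genes above 0.95. For Egfr they were Bcl6 (0.998), Wnt9a (0.992) and Col6a1 (0.991), with 102 genes above 0.95. Erbb3, which varied little, came closest to Map7d2 (0.983), Rad50 (0.949) and Ing1 (0.948), with 1 gene above 0.95. The 6 points come from 3 groups of 2 libraries and share them with the comparisons above, so the values of r are descriptions.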
